A study of Mus musculus with 24 samples.

Results

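Regions carrying H3K4me3 but lying far from any annotated promoter were collected from the supporting cell lineage of the mouse gonad, before and after sex determination. Overlapping H3K4me3 peaks were joined within each of 4 deposited lists, the lists were merged on chromosomes 1 to 19, and a merged region was kept when no transcript start of GENCODE release M1, of any biotype, lay within 5 kb of its edges. This left 45578 of 71666 merged regions (63.6%, exact 95% interval 63.2 to 64.0), called distal regions here, and the other 26088 lay within 5 kb of a start. H3K4me3 calls and distance to a start therefore chose the members, and both are given only as a description. Regions just outside the rule lay 5000 bp from a start and those just inside lay 5001 and 5002 bp away, and the number of regions did not break there, with 1981 at 4000 to 5000 bp and 1705 at 5000 to 6000 bp.

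The 4 lists came from embryos of C57BL/6 x CD1 background, the only background used. XY and XX progenitor cells were sorted at E10.5 from gonads with the SF1-eGFP reporter, which follows the promoter of Nr5a1, the gene for the orphan nuclear receptor SF1. Sertoli cells were sorted at E13.5 from XY gonads with Sox9-CFP. Pregranulosa cells, called granulosa cells in the labels, were sorted at E13.5 from XX gonads with TESM-CFP, a reporter driven by a mutated copy of TESCO, an upstream enhancer of Sox9. Cells of several gonads were pooled for each of 2 replicates, and the replicates were joined before peaks were called, so each population contributes 1 list per mark and no spread between replicates can be given. No test between populations was possible, and all intervals below are exact binomial intervals that cover counting error only.

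H3K4me3 is the mark that Trithorax group complexes place at active and poised promoters, most strongly over CpG islands. H3K27me3 is placed by Polycomb repressive complex 2 on silent developmental genes, and promoters with both marks are termed bivalent. Away from promoters, H3K4me3 is usually weaker and narrower, and it can lie on promoters missing from an annotation, on CpG islands inside or between genes, or on enhancers, whose usual mark is H3K4me1.

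The H3K4me3 calls rested on 10162534 tags in XY progenitors, 49254553 in XX progenitors and 31104760 in Sertoli cells, with fragment lengths estimated by the authors of 70, 178 and 104 bp. The pregranulosa list has no header, and its depth is not given in the sources used here. Labels were checked at the transcript starts of marker genes fixed as lists. H3K4me3 was called at all 6 Sertoli markers in Sertoli cells and at 4 of 6 in each other population, the difference being Amh and Ptgds. H3K27me3 was at 0 of the 6 in Sertoli cells and at 4 in each of the other populations. The 6 pregranulosa markers carried H3K4me3 everywhere, and H3K27me3 was at 2 of them in pregranulosa cells and at 6 in each of the others. The 6 gonadal progenitor markers also carried H3K4me3 everywhere, so their H3K4me3 did not set the progenitors apart. H3K27me3 was at 6 of them in each progenitor, 2 in Sertoli and 1 in pregranulosa cells. Other cell types were not absent from the calls, with H3K4me3 at 0 to 2 of 5 germ cell markers, 1 or 2 of 5 endothelial, 1 or 2 of 4 blood, 0 to 2 of 4 steroidogenic and 3 or 4 of 4 mesonephric markers. The mesonephric markers also carried H3K27me3 in all 4 populations, and the part of other cells in the distal calls was not tested.

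To show what these regions look like, the central 200 bases of the widest region without an exon are given for each of 7 call patterns, named by the nearest protein-coding gene. They are read 5′ to 3′ from the plus strand of mm9 (NCBIM37), with each CpG in capitals. The number of CpGs in 200 bases was 4 for the regions called in all lists and in both E13.5 lists, 2 for the Mapkap1 and Kitl regions and 1 for the other 3.

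Fam105a, all 4 lists, chr15:27713516-27713715: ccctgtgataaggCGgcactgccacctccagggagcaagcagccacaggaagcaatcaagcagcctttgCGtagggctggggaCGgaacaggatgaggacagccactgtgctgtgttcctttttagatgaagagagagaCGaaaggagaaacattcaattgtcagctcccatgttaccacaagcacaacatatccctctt
Mapkap1, both E10.5 lists, chr2:34456217-34456416: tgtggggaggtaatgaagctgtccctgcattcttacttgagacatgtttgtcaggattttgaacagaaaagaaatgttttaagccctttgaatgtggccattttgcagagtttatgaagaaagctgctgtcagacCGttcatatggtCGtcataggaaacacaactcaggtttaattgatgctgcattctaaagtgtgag
Fam110c, both E13.5 lists, chr12:31776388-31776587: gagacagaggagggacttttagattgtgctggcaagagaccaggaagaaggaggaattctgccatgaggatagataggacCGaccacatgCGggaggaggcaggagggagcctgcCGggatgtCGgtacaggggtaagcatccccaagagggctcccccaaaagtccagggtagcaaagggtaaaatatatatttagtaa
Rcsd1, both XX lists, chr1:167623576-167623775: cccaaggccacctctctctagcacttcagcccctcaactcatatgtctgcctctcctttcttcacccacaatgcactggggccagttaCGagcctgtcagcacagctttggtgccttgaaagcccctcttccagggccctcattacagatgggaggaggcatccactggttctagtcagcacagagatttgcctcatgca
Cpm, both XY lists, chr10:116955728-116955927: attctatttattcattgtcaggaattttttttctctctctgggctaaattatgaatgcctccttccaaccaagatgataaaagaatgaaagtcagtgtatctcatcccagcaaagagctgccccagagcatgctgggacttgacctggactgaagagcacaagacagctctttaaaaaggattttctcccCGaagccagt
Slc38a1, Sertoli only, chr15:96427374-96427573: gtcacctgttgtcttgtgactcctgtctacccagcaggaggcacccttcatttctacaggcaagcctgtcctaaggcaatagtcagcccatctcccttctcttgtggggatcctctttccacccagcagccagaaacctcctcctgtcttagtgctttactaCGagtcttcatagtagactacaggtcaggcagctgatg
Kitl, pregranulosa only, chr10:99489965-99490164: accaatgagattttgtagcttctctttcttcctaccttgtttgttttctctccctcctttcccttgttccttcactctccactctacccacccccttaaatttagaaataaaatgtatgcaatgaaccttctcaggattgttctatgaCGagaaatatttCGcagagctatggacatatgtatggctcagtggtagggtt

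Most distal regions were called in 1 population, the reverse of regions near a start. Of the 45578 regions, 27625 (60.6%) appeared in 1 list only, against 48.2% of all merged regions and 26.5% of those near a start. Only 4888 distal regions (10.7%) appeared in all 4 lists, against 27.6% of all merged regions and 57.2% of those near a start. Distal regions were also narrow, with a median width of 1251 bp (quartiles 1001 and 1662, range 861 to 14065) against 2420 bp near a start, and 44.7% of them were 1001 bp wide, the size of the caller's window. Median width was 1001 bp for regions of 1 list and 1505, 1794 and 2276 bp for those of 2, 3 and 4 lists.

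Each list contributed a large share of distal calls. Of the distal regions, 17097 (37.5%) were called in XY progenitors, 20676 (45.4%) in XX progenitors, 17710 (38.9%) in Sertoli cells and 22292 (48.9%) in pregranulosa cells, and the same shares over all merged regions were 49, 56.1, 51.5 and 59.2%. Regions called in XY progenitors only were the most numerous pattern at 7714 (16.9%, against 13.1% of all merged regions), and 94.7% of them were 1001 bp wide, against 61.4 to 68.1% of the regions called in 1 of the other populations only. The XY progenitor list is also the shallowest of those with a stated depth, and the part of depth in these calls was not tested. The next patterns were pregranulosa only (7536 regions, 16.5% against 13.1% of all merged regions), XX progenitor only (6778 regions, 14.9% against 11.7%) and Sertoli only (5597 regions, 12.3% against 10.3%). Both E13.5 populations but neither progenitor held 3142 regions (6.89% against 5.78%), and both progenitors but neither E13.5 population held 1991 (4.37% against 3.45%).

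**Figure D1:**
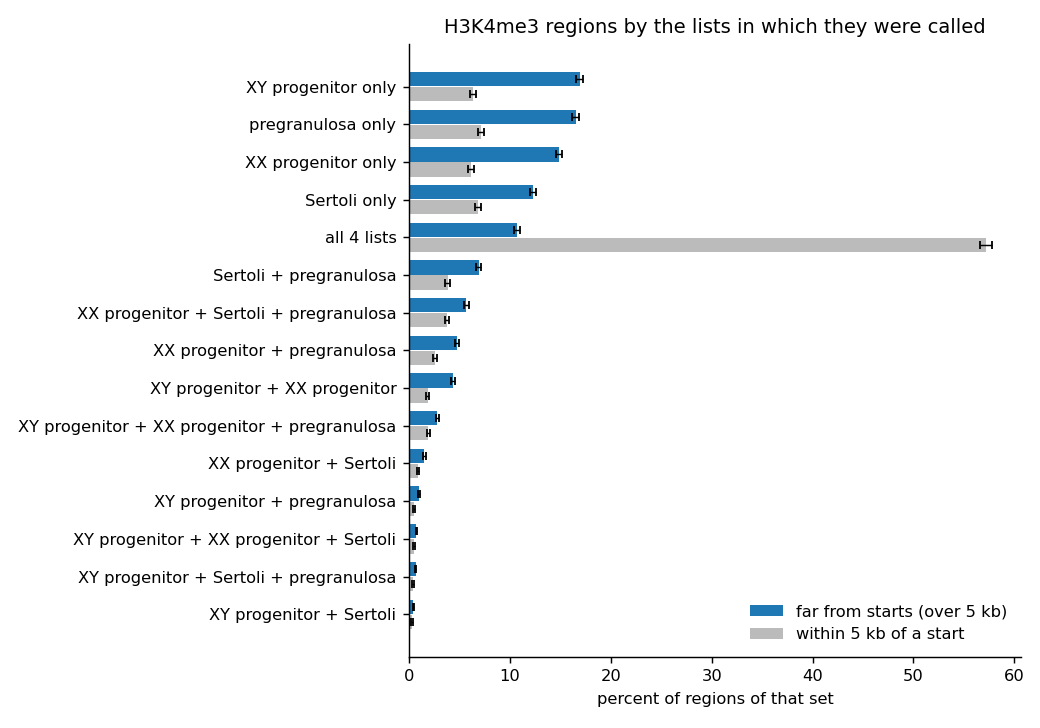
Percent of H3K4me3 regions (x axis) in each of 15 combinations of the 4 lists (y axis), for 45578 regions over 5 kb from every annotated start (blue) and 26088 regions nearer than that (grey), with exact 95% intervals of counting error. All 4 lists held 57.2% of the regions near a start and 10.7% of the distal ones.

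The 2 sexes shared fewer distal regions than promoter regions at either stage. At E10.5, 8470 distal regions were called in both XY and XX progenitors, 28.9% of those called in either, against 74.7% near a start and 48.3% of all merged regions. At E13.5, 10907 were called in both Sertoli and pregranulosa cells, 37.5% of those called in either, against 76.1% near a start and 54.2% of all merged regions. By population, 61.6% of the Sertoli distal regions were also called in pregranulosa cells, and 33.3% of those of XY progenitors were also called in Sertoli cells. In the XX lineage, 52.7% of the progenitor regions were also called in pregranulosa cells. The corresponding shares near a start were 88.5, 84.7 and 87.5%.

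The widest regions of each pattern show the range of places involved, and their values are the bases covered by calls in each population. The widest of all spanned 14065 bp at chr15:27706584-27720648, in an intron of Trio, a guanine nucleotide exchange factor gene, 95.3 kb upstream of Fam105a. H3K4me3 covered 7958 bp of it in XY progenitors, 13684 bp in XX progenitors, 7171 bp in Sertoli cells and 11960 bp in pregranulosa cells, and no population had H3K27me3 there. The next, at chr7:77472475-77483878, lay between genes 21.6 kb from Nr2f2, the gene for the nuclear receptor COUP-TFII, and covered 9984, 10920, 3949 and 6262 bp in the same order. It carried H3K27me3 over 8496, 11363, 11404 and 11404 bp, so all 4 populations had both marks. Farther from Nr2f2, chr7:77423826-77428124 also had both marks in all populations, whereas chr7:77210193-77214325 had H3K27me3 in the E13.5 populations only, over its whole 4133 bp.

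Among regions of the progenitors only, the widest lay in an intron of Mapkap1 (chr2:34453430-34459204), with 2534 bp called in XY and 5775 bp in XX progenitors and no H3K27me3. The region nearest to Smug1 (chr15:102949076-102954767), over an exon of D930007P13Rik, covered 3002 and 5692 bp in the progenitors, and at E13.5 it had no H3K4me3 and H3K27me3 over 5692 bp in Sertoli and 4933 bp in pregranulosa cells. Among regions called only at E13.5, the widest lay 14.1 kb from Fam110c (chr12:31772938-31780038), with 3824 bp in Sertoli and 7101 bp in pregranulosa cells. An intron of Gas7, a cytoskeletal growth arrest gene, held the other (chr11:67428111-67434929), with 2601 and 6819 bp. Neither had H3K27me3 in any population.

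The 2 widest regions called only in Sertoli cells and the 2 widest called only in pregranulosa cells all overlapped an exon. The widest called only in Sertoli cells covered 7019 bp over an exon of Mylk, the myosin light chain kinase gene (chr16:34992374-34999392), with H3K27me3 over 1832 bp in XY progenitors and none elsewhere. The next was a region of 5804 bp overlapping Gm11194 and Slc13a2 (chr11:78213308-78219111), 13.2 kb from Foxn1, with H3K27me3 over 4946 bp in XY progenitors only. In pregranulosa cells only, 6290 bp were called inside Nr2e3 (chr9:59784716-59791005) and 5976 bp over Gm7677, 25.9 kb from Lzts1 (chr8:71690832-71696807), both without H3K27me3.

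Of regions shared by the XX populations only, the one inside Rcsd1 (chr1:167620921-167626430) covered 5510 bp in XX progenitors and 1001 bp in pregranulosa cells, and Sertoli cells had H3K27me3 over 5296 bp of it. The region 103 kb from G930045G22Rik (chr6:50931070-50935791) covered 4722 and 1001 bp, with H3K27me3 over all 4722 bp in both E13.5 populations. Of regions shared by the XY populations only, the one 108.7 kb from Cpm (chr10:116953771-116957885) covered 3995 bp in XY progenitors and 2655 bp in Sertoli cells, with H3K27me3 over 4115 bp in pregranulosa and 1384 bp in Sertoli cells. The one inside Scara5, a ferritin receptor gene (chr14:66340281-66343858), covered 1001 and 3305 bp without H3K27me3. The widest called only in XY progenitors was 2752 bp over an exon of Adra1a (chr14:67388579-67391330), and the widest called only in XX progenitors was 4730 bp inside Tshz2 (chr2:169552202-169556931), where Sertoli cells had H3K27me3 over 4299 bp.

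H3K27me3, which the rule did not use, lay on fewer distal regions than promoter regions. Of the distal regions with H3K4me3 in a population, H3K27me3 in that population overlapped 13% in XY progenitors (95% interval 12.50 to 13.51), 14.3% in XX progenitors (13.8 to 14.8), 16.9% in Sertoli cells (16.3 to 17.4) and 17.7% in pregranulosa cells (17.2 to 18.2). Near a start the shares were 31.5, 31.9, 28.4 and 28.4%, and over all merged regions 22.5, 22.8, 22.9 and 22.8%. The share was thus higher at E13.5 than at E10.5 in distal regions and lower near a start, beyond counting error in both sets. With lists of equal length the distal shares were 11.5, 15.2, 12.5 and 14.8%, and the order of stages turned in the XX lineage. H3K27me3 calls covered 89.7 and 82.2 Mb in XY and XX progenitors and 156 and 130 Mb in Sertoli and pregranulosa cells, and the part of this wider coverage was not tested. These calls rested on 6470151 tags in XY progenitors, 33185400 in XX progenitors and 44446456 in Sertoli cells. The number for pregranulosa cells is not stated. The part of depth in the H3K27me3 differences between stages, here and below, was not tested. In all, 34632 distal regions (76.0%) had no H3K27me3 in any population and 2353 had it in all 4.

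Distal regions that were called at E10.5 and not at E13.5 more often had H3K27me3 at E13.5 than those newly called. In the XY lineage, 5694 distal regions were called at both stages (33.3% of those at E10.5), 11403 at E10.5 only (66.7%) and 12016 at E13.5 only (67.8% of those at E13.5), and over all merged regions these shares were 59.6, 40.4 and 43.3%. H3K27me3 overlapped 7.14% of the E10.5-only regions in XY progenitors (6.67 to 7.63) and 17.5% in Sertoli cells (16.8 to 18.2). On E13.5-only regions it went from 5.58% (5.18 to 6.01) to 8.95% (8.44 to 9.47), and on regions called at both stages from 24.7 to 33.6%. Over all merged regions the shares went from 9.37 to 19.7%, from 7.67 to 10.2% and from 31.3 to 32.6% in the same order.

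In the XX lineage, 10892 distal regions were called at both stages (52.7% of those at E10.5), 9784 at E10.5 only (47.3%) and 11400 at E13.5 only (51.1% of those at E13.5), against 69.6, 30.4 and 34.1% over all merged regions. H3K27me3 overlap went from 9.36% (8.79 to 9.96) to 18.4% (17.7 to 19.2) on E10.5-only regions, from 3.32% (2.99 to 3.66) to 9% (8.48 to 9.54) on E13.5-only regions and from 18.7 to 26.8% on regions called at both stages. Over all merged regions it went from 11.7 to 20.1%, from 4.56 to 9.2% and from 27.7 to 29.8%. With every list cut to the same number of its widest regions, the E13.5 shares were 13.8% on E10.5-only and 6.42% on E13.5-only regions in the XY lineage, and 16.1 and 7.14% in the XX lineage.

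**Figure D2:**
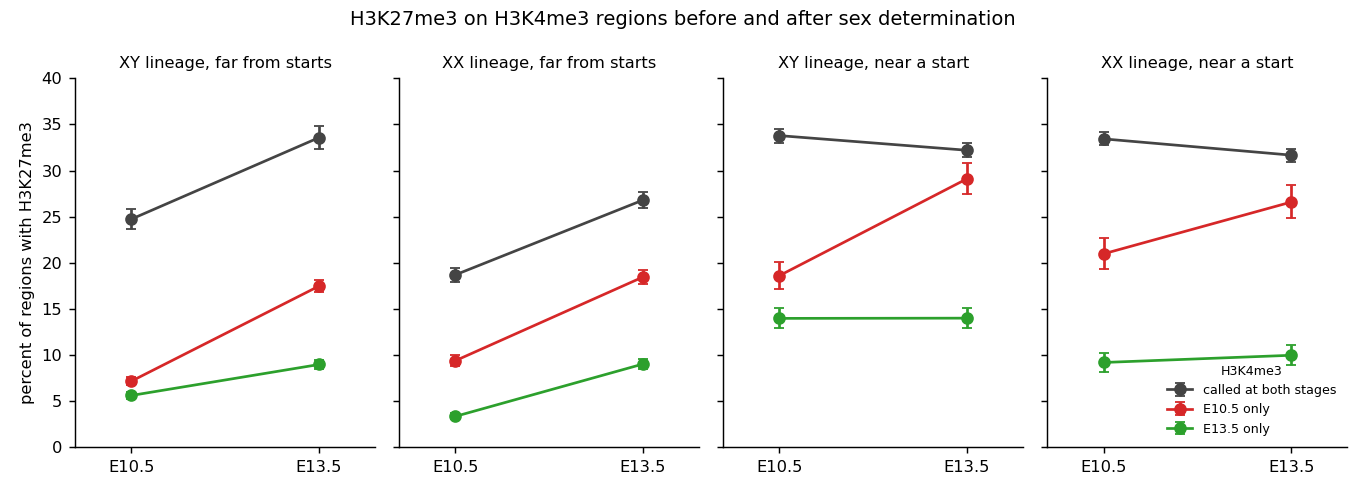
Percent of H3K4me3 regions overlapped by H3K27me3 (y axis) at E10.5 and E13.5 (x axis) for the XY and XX lineages, far from starts (left 2 panels) and near a start (right 2 panels), by whether H3K4me3 was called at both stages (black), at E10.5 only (red) or at E13.5 only (green), with exact 95% intervals. In distal regions all 3 lines rise. Red ends above green in both lineages, far from starts and near a start.

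H3K27me3 in Sertoli cells was most frequent, among the 15 call patterns, on distal regions that lacked H3K4me3 in Sertoli cells alone. Of 1269 distal regions called in every population except Sertoli cells (2.78% of distal and 2.46% of all merged regions), H3K27me3 overlapped 42.9% in Sertoli cells (40.2 to 45.7) and 32.5% in pregranulosa cells (30.0 to 35.2). Of 322 called in every population except pregranulosa cells (0.706 and 0.632%), it overlapped 22.4% in Sertoli (17.9 to 27.3) and 23.0% in pregranulosa cells (18.5 to 28.0). Regions called in all 4 lists stood at 27.2 and 25.8% in XY and XX progenitors, above the 20.6 and 19.5% of the regions called everywhere but in Sertoli cells, and at 36.5% in Sertoli (35.2 to 37.9) and 32.4% in pregranulosa cells (31.1 to 33.7). Regions of both progenitors only stood at 11.9 and 11.8% in XY and XX progenitors, 30.6% in Sertoli (28.6 to 32.7) and 23.7% in pregranulosa cells (21.8 to 25.6). Regions called only in Sertoli cells had the lowest Sertoli share, 4.84% (4.29 to 5.44), and those called only in both E13.5 populations had 5.51% in Sertoli and 6.75% in pregranulosa cells. Over all merged regions the shares were 15.3, 14.7, 21.5 and 18.7% in the 4 populations.

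Distal regions near sex-specific genes differed between the sexes in both marks. For this the study's lists of genes specific to Sertoli or pregranulosa cells by expression were used, of which 1314 of 1408 and 1063 of 1164 symbols matched an autosomal protein-coding gene. These lists come from expression in sorted cells of another work and not from the calls described here. Of 3505 distal regions called at E13.5 and nearest to a Sertoli-specific gene, 33.2% were in Sertoli and not pregranulosa cells (31.6 to 34.7) and 27.6% in pregranulosa and not Sertoli cells (26.1 to 29.1). Of 3493 nearest to a pregranulosa-specific gene, 15.9% were in Sertoli only (14.7 to 17.1) and 49.4% in pregranulosa only (47.7 to 51.0). Over all 29095 distal regions called at E13.5 the shares were 23.4 and 39.1%, the pregranulosa list being longer. With lists of equal length they were 30.2 and 32.8% for all, 41.0 and 21.6% for Sertoli-specific and 21.2 and 43.7% for pregranulosa-specific genes.

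H3K27me3 went the opposite way. It overlapped 11.1% of the 5073 distal regions nearest to Sertoli-specific genes in Sertoli cells (10.3 to 12%) and 15.3% in pregranulosa cells (14.3 to 16.3). Of the 5327 nearest to pregranulosa-specific genes it overlapped 16.6% in Sertoli (15.6 to 17.6) and 8.45% in pregranulosa cells (7.71 to 9.23). In the progenitors both groups stood between 5.16 and 6.41%. Over all distal regions the Sertoli and pregranulosa shares were 17.7 and 14.7%. Several regions can share a nearest gene, so they are not independent of each other.

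**Figure D3:**
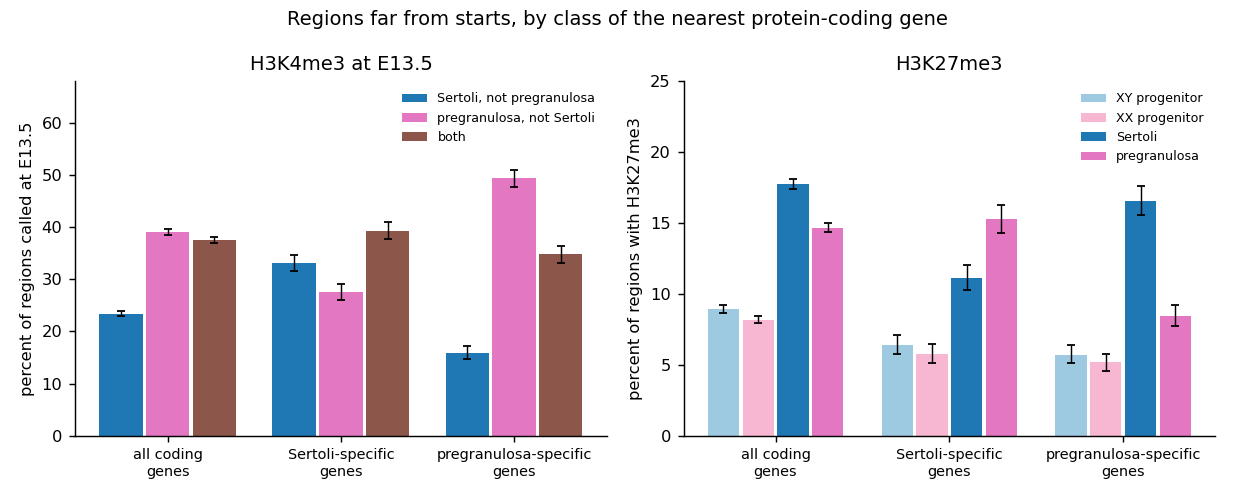
Distal H3K4me3 regions grouped by the class of the nearest protein-coding gene (x axis). Left, percent of regions with an E13.5 call that were called in Sertoli cells only, pregranulosa cells only or both; right, percent of all regions overlapped by H3K27me3 in each population; bars have exact 95% intervals. Near pregranulosa-specific genes, 49.4% of the E13.5 regions were called in pregranulosa cells only, and H3K27me3 was at 16.6% in Sertoli and 8.45% in pregranulosa cells.

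Early gonad, pregranulosa, Sertoli and Wnt pathway genes were more often nearest to a distal region than coding genes as a whole, and had longer flanks. Of all 21418 autosomal protein-coding genes, 49.96% were the nearest coding gene of at least 1 distal region. Among listed genes this was so for 18 of 19 early gonad genes, 19 of 20 pregranulosa genes, 17 of 22 Sertoli genes and 45 of 52 Wnt pathway genes, but 17 of 37 Polycomb and Trithorax genes. The sequence nearest to a gene differed too, with a median of 44.4 kb over all coding genes against 297, 177, 110, 127 and 44.3 kb for these lists in that order, and the part of this room in the shares was not tested. Per Mb of nearest sequence there were 18.4 distal regions over all coding genes, 23.4 for early gonad, 38.1 for pregranulosa, 34.8 for Sertoli, 41.6 for Wnt pathway and 28.2 for Polycomb and Trithorax genes. Lists for other cell types stood at 23.5 for blood, 26.5 for mesonephric, 26.7 for germ cell, 30.9 for endothelial and 31.8 for steroidogenic genes. By this measure early gonad genes were the lowest of these lists, though above all coding genes. Insr alone gave 3317 kb of the early gonad sequence and only 7 of its 243 regions. This low rank therefore depends on Insr, and the rate without it was not computed. In all, 627 distal regions were nearest to an early gonad, Sertoli or pregranulosa gene, 349 of them in 1 list and 84 in all 4.

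Early gonad transcription factors had regions with both shared and changing marks. Wt1, the Wilms tumor factor needed for gonad formation, had 5 distal regions, of which the widest (chr2:104977974-104983774, over an exon of Wt1) covered 1001 bp in XY progenitors, 2623 bp in XX progenitors, none in Sertoli cells and 5801 bp in pregranulosa cells. Gata4, a zinc finger factor of the genital ridge, had 11, and H3K27me3 overlapped 4 and 5 of them in XY and XX progenitors and none at E13.5. Its widest (chr14:63937361-63942598, 46.8 kb upstream) covered 0, 2356, 5029 and 4962 bp of H3K4me3 in XY progenitors, XX progenitors, Sertoli and pregranulosa cells. Emx2, a homeobox factor of the urogenital ridge, had 13, and H3K27me3 overlapped 2 and 1 in the progenitors, 7 in Sertoli and none in pregranulosa cells. The widest of these (chr19:59661377-59666291) had 1001, 4458, 1001 and 3411 bp of H3K4me3 and 4915 bp of H3K27me3 in Sertoli cells only. The 3 regions nearest to Nr5a1 carried H3K27me3 on 2 in each progenitor and on none at E13.5. Only the progenitors were sorted with the SF1-eGFP reporter, and reads from any Nr5a1 sequence in that transgene would align to this locus. Their part in these values was not tested. Over all distal regions, H3K27me3 overlapped 8.95, 8.17, 17.7 and 14.7% in XY progenitors, XX progenitors, Sertoli and pregranulosa cells. Counts by gene here and below are to be read beside these shares.

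Other early gonad genes had wide regions called in all 4 populations. Upstream of Tcf21, a basic helix-loop-helix factor, the region at chr10:22561308-22565860 had H3K4me3 over 3560, 4553, 1297 and 2167 bp in XY progenitors, XX progenitors, Sertoli and pregranulosa cells and carried H3K27me3 over at least 4219 bp everywhere. A region 388 kb from Cited2 (chr10:17050213-17054536) covered 2380, 4324, 1534 and 2494 bp without H3K27me3. Distal regions nearest to Cited2 numbered 36, of which 14 were called in pregranulosa and not Sertoli cells and 1 the other way. Over all 45578 distal regions these counts were 11385 and 6803, the pregranulosa list being longer.

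Sox9, the transcription factor that directs Sertoli differentiation, had 35 distal regions, of which H3K27me3 overlapped 10 in XY progenitors, 8 in XX progenitors, 12 in Sertoli and 22 in pregranulosa cells. Over all distal regions the shares were 8.95, 8.17, 17.7 and 14.7%. The nearest and widest region of Sox9, at chr11:112629977-112635733 and 7.81 kb upstream of the start, lay over an exon of BC006965. H3K4me3 covered none of it in XY progenitors, 1882 bp in XX progenitors, 4761 bp in Sertoli cells and 2083 bp in pregranulosa cells. H3K27me3 covered 2960, 1895, 0 and 5757 bp in that order, so Sertoli cells had the most H3K4me3 and no H3K27me3, and pregranulosa cells had H3K27me3 over the whole region. Both E13.5 populations were sorted with a Sox9 reporter, driven in pregranulosa cells by a Sox9 enhancer, and reads from Sox9 sequence in either transgene would align to this locus. Their part in both values was not tested. Each of 4 regions from 315 to 329 kb downstream, between chr11:112961440-112962440 and chr11:112974875-112975875, lay in an intron of 2610035D17Rik. All of them had H3K27me3 in XY progenitors, XX progenitors and pregranulosa cells and none in Sertoli cells. Whether a single stretch of H3K27me3 covers them was not examined.

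Other Sertoli genes differed in their pattern. Fgfr2, the receptor for FGF9 in the developing testis, had 32 distal regions with H3K27me3 on none in either progenitor, 13 in Sertoli and 2 in pregranulosa cells. The widest (chr7:137267329-137274531) had H3K4me3 over 1001, 1358, 1001 and 7203 bp and H3K27me3 over all 7203 bp in Sertoli cells only. Fgf9 itself had 17, with H3K27me3 on 1 in Sertoli cells and none elsewhere. That one (chr14:58881897-58886177) had H3K4me3 over 1001, 4281, 0 and 1001 bp and H3K27me3 over 3191 bp in Sertoli cells. Dmrt1, a testis factor with a DM domain, had 7, with H3K27me3 on 2 and 3 in the progenitors and none at E13.5. Over all distal regions the H3K27me3 shares were 8.95, 8.17, 17.7 and 14.7% in XY progenitors, XX progenitors, Sertoli and pregranulosa cells. Amh, Amhr2, Clu, Cst9 and Ptgds had no distal region. The sequence nearest to them was short, at 5.50, 18.0, 30.8, 15.4 and 16.6 kb in that order. The rule leaves out 5 kb on each side of a start, so they had little room for one.

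H3K27me3 in Sertoli cells lay on distal regions of the listed pregranulosa and Wnt pathway genes more often than on distal regions as a whole. Over the 217 regions nearest to pregranulosa genes it overlapped 18.9% in each progenitor, 36.4% in Sertoli and 22.1% in pregranulosa cells, and over the 371 nearest to Wnt pathway genes 9.97, 8.89, 31.5 and 20.5%. Over all distal regions the shares were 8.95, 8.17, 17.7 and 14.7%. Both lists hold Axin2, Ctnnb1, Lef1, Lgr5, Rspo1 and Wnt4, so their shares are not separate. Of the 79 regions of pregranulosa genes with H3K27me3 in Sertoli cells, Irx3 gives 17, Lef1 14 and Runx1 12. The Sertoli share in the other gene lists ranged from 15.8% for steroidogenic to 45.5% for blood genes, with 37.3% for Polycomb and Trithorax genes. For the study's longer list of pregranulosa-specific genes it was 16.6%, against 8.45% in pregranulosa cells. Lef1, a transcription factor of canonical Wnt signaling, had 20, with H3K27me3 on 3, 3, 14 and 4 in XY progenitors, XX progenitors, Sertoli and pregranulosa cells, and H3K4me3 was called on 17 in pregranulosa and 7 in Sertoli cells. Axin2, a feedback inhibitor and target of the same pathway, had 9, with H3K27me3 on 4, 2, 8 and 2. Its widest (chr11:108750491-108755262) had H3K4me3 in all populations, over 2840 to 4307 bp, and H3K27me3 over 2996, 3192, 4741 and 0 bp. A second Axin2 region, at chr11:108769643-108773817, had H3K27me3 in all 4, over 3565, 3987, 4175 and 3797 bp. Bmp2, a pregranulosa ligand, had 17, of which 12 were called in pregranulosa and 1 in Sertoli cells. Over all distal regions, H3K4me3 was called on 48.9% in pregranulosa and 38.9% in Sertoli cells. All 3 regions upstream of Rspo1, the ligand that sustains Wnt signaling in the ovary, were 1001 bp windows called in a progenitor only, with H3K27me3 in Sertoli cells only. A region 5.83 kb downstream of Cdkn1b, the gene for the cell cycle inhibitor p27 (chr6:134876244-134880882), had H3K4me3 in all populations, over 3365 to 4522 bp, and H3K27me3 over 3359 bp in XX progenitors only.

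Kitl and Irx3 show regions with opposite features. Kitl, the KIT ligand made by supporting cells for germ cells, had 19 distal regions, none with H3K27me3. An intronic region at chr10:99487176-99492954 covered 5779 bp in pregranulosa cells and 0 elsewhere, and another at chr10:99499450-99505994 covered 1001, 1644, 4655 and 6545 bp. Irx3, a homeobox gene of pregranulosa cells, had 25, with H3K27me3 on 15, 16, 17 and 14. The widest (chr8:94235921-94240514) had H3K4me3 over 2593, 4594, 2194 and 3646 bp and H3K27me3 over 2327, 4594, 4594 and 0 bp. The Lgr5 region at chr10:114928070-114932598 covered 1001, 1001, 3844 and 2634 bp without H3K27me3. Fst had 1 distal region and Foxl2 had none. Over all distal regions the H3K27me3 shares were 8.95, 8.17, 17.7 and 14.7% in XY progenitors, XX progenitors, Sertoli and pregranulosa cells. The Lef1, Bmp2, Rspo1 and Emx2 loci and the group downstream of Sox9 were picked out after their values were seen.

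Distal regions were placed in genes somewhat more than the sequence they could lie in, except for those called everywhere. Of the 45578 regions, 7.85% overlapped an exon, 38.7% lay in introns and 53.4% between genes, so 46.6% (46.1 to 47.0) were inside a gene, against 36.1% of all sequence over 5 kb from every start and 61.5% of all merged regions. For regions called in all 4 lists 37.0% (35.6 to 38.3) were inside a gene. A region counted as inside a gene when it overlapped one by 1 bp, whereas 36.1% is a share of bases. These measures are unlike, which raises the share of regions, and more so for wide ones. The median distance to the nearest protein-coding start was 39.4 kb (quartiles 16.2 and 105 kb), and to any annotated start 28.3 kb. For regions in all 4 lists these medians were 30.6 and 22.9 kb. The genes nearest to most distal regions were Auts2 (90 regions, 77 of them inside it), Zfp608 (57) and Zfhx3 (55), all with long flanks, and per population the calls at Auts2 numbered 32, 50, 30 and 35.

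Some of these regions hold promoters that the annotation used here lacks. Promoter sequences of RefSeq (GRCm38 build, 250 bases before to 50 after a start, none on chromosome 18) were matched to mm9, and 31357 of 32851 (95.5%) were placed. Of 43721 distal regions off chromosome 18, 1116 (2.55%, 2.41 to 2.70) held a placed start, with 1.12% of those in 1 list and 10.3% (9.41 to 11.2) of those in all 4, against 44.6% near a start. Of the 1116, 917 (82.2%) held a lncRNA start and 199 a protein-coding one. Of 7653 placed starts over 5 kb from every GENCODE M1 start, 1340 (17.5%) lay in a distal region.

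The widest regions with such a start, named after their values were seen, include known regulatory RNAs. Kcnq1ot1, the imprinted antisense RNA of the Kcnq1 cluster, starts in chr7:150471892-150483225, with 4496, 5689, 5468 and 11088 bp of H3K4me3 in XY progenitors, XX progenitors, Sertoli and pregranulosa cells. Chaserr, the lncRNA next to Chd2, starts in chr7:80695532-80705352, with 4734, 6057, 7397 and 9236 bp. Neither had H3K27me3. Gm29683, beside Nr2f2, starts in the region with both marks described above. Of the other regions named above, the Fam110c, Nr2e3, Irx3 and Cdkn1b regions and the second Axin2 region also held a placed RefSeq start. An alternative start of Foxp1, a forkhead factor gene, lies in chr6:99466872-99475349, with 7869, 8233, 4735 and 5276 bp of H3K4me3 and H3K27me3 over 5001 bp in pregranulosa cells only.

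Sequence content followed the number of lists. The CpG observed to expected ratio had a median of 0.231 in distal regions, 0.376 near a start and 0.153 in 186861 genome tiles of 1 kb taken far from starts and outside all regions. A CpG-rich stretch (200 bp, GC over 50%, ratio over 0.6) was found in 24.2% of distal regions (23.8 to 24.6), 65.6% near a start, 39.3% of all merged regions and 4.32% of tiles. The share was 13.9, 24.4, 39.9 and 67.8% in distal regions of 1, 2, 3 and 4 lists. Within the regions called in all 4 lists it was 92.7% (90.8 to 94.3) of the 907 with H3K27me3 in all populations and 55.9% (54.0 to 57.8) of the 2598 with none. Wider regions offer more windows, and in the central 1 kb the shares for 1 to 4 lists were 12.8, 18.7, 30.6 and 54.8%. Of distal regions holding no placed RefSeq start, 23.4% had a CpG-rich stretch, and of those holding one 54.7%.

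**Figure D4:**
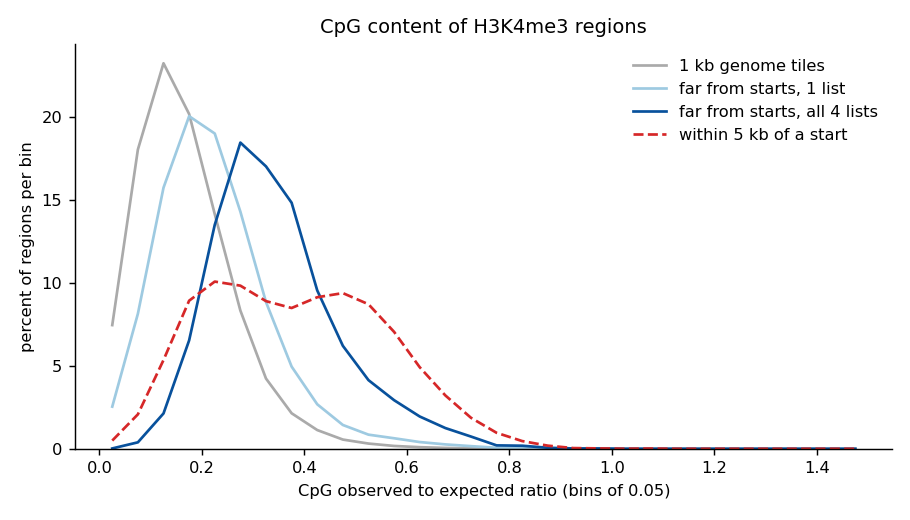
Distribution of the CpG observed to expected ratio (x axis, bins of 0.05) as percent of regions per bin (y axis) for genome tiles of 1 kb, distal regions of 1 list, distal regions of all 4 lists and regions near a start. Distal regions of all 4 lists (median 0.324) lie to the right of those of 1 list (median 0.209).

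Binding motifs of sex-determining factors were spread unevenly over the call patterns. The central 300 bp of each region were searched on both strands for short motifs by their letters, and a match is a description and not a binding site. The letters of NR5A1, the SF1 receptor of gonadal and steroidogenic cells, were TCAAGGTCA or CCAAGGTCA. They were found in 7.61% (6.70 to 8.59) of the regions called in both E13.5 populations only, 5.97% (5.45 to 6.53) of those in pregranulosa only and 5.18% (4.62 to 5.79) of those in Sertoli only. Regions of both progenitors only had 1.36% (0.896 to 1.97), regions in XY progenitors only 1.36%, in XX progenitors only 1.79% and in all 4 lists 1.94%. Over all distal regions the share was 3.54%, near a start 2.57% and in genome tiles 0.977%. The E13.5 patterns were thus above the progenitor patterns beyond counting error. The progenitors themselves were sorted with a reporter of the gene for this factor.

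Motif shares differed between Sertoli-only and pregranulosa-only regions, which had like GC contents (medians of 45.0 and 44.7%) and the same median width of 1001 bp. The letters of DMRT factors (TACAATGT) were in 2.43% of Sertoli-only (2.04 to 2.87) and 0.770% of pregranulosa-only regions (0.585 to 0.994), with 1.63% in genome tiles. Those of SOX factors (AACAAT) were in 19.2% (18.1 to 20.2) and 13.52% (12.8 to 14.3), with 21.6% in tiles. In the opposite direction, the letters of TCF/LEF factors (CTTTGATC or CTTTGAAG) were in 3.18% of Sertoli-only (2.74 to 3.67) and 5.97% of pregranulosa-only regions (5.45 to 6.53), with 3.53% in tiles. Those of GATA factors (AGATAA) were in 22.4% (21.3 to 23.5) and 28.8% (27.8 to 29.8), with 19.7% in tiles. The tiles are richer in A and T (median GC 41.0%), so for motifs of these letters they are no matched control.

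CRE letters (TGACGTCA) were rare, in 0.50% of Sertoli-only (0.333 to 0.722) and 0.199% of pregranulosa-only regions (0.111 to 0.328), resting on 28 and 15 regions, and these intervals also did not overlap. For forkhead and AP-1 letters the intervals overlapped. Forkhead letters (TGTTTAC), the family of FOXL2, were in 4.57% (4.04 to 5.15) of Sertoli-only and 5.63% (5.12 to 6.17) of pregranulosa-only regions. AP-1 letters (TGANTCA) were in 9.29% (8.54 to 10.1) and 9.10% (8.46 to 9.77). The letters of CTCF, the insulator protein, were in 7.82% (7.08 to 8.60) of the distal regions of all 4 lists, 4.75% of all distal regions, 8.17% near a start and 2.76% of tiles. None of the motifs searched contains another, though DMRT and SOX letters share a run of 5 bases.

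**Figure D5:**
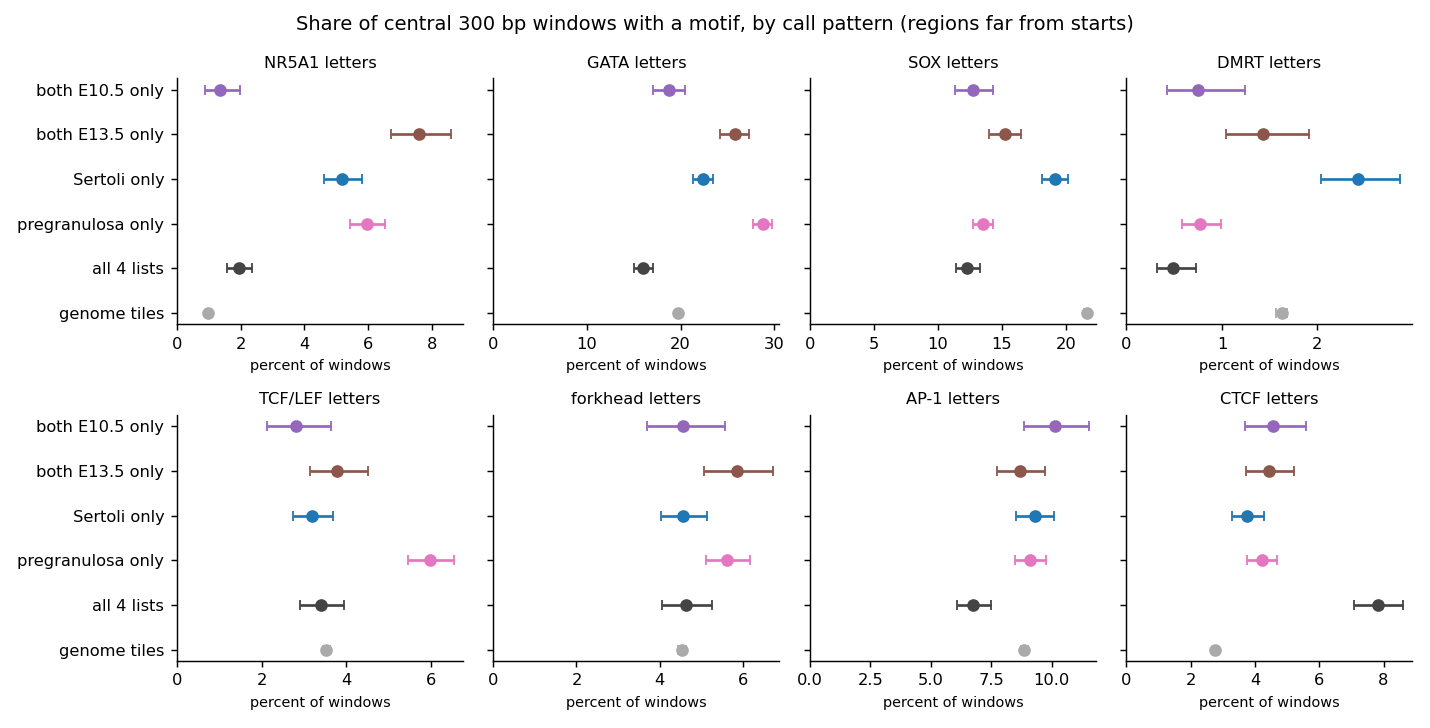
Percent of central 300 bp windows with the letters of 8 factor families (x axis of each panel) in distal regions of 5 call patterns and in genome tiles (y axis), with exact 95% intervals of counting error. NR5A1 letters are at 5.18 to 7.61% in the 3 E13.5 patterns and 1.36% in regions of both progenitors only, DMRT and SOX letters are more frequent in Sertoli-only and TCF/LEF and GATA letters in pregranulosa-only regions.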

How the data were processed

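H3, H3K4me3 and H3K27me3 were profiled by native ChIP-seq after MNase digestion in 24 samples, 2 replicates for each mark in each of 4 populations, with Drosophila S2 chromatin as carrier. Per the submitters' processing notes, reads were trimmed with Trim Galore, aligned with Bowtie to mm9, and peaks were called with HOMER on joined replicates, with H3 as control. The 8 deposited lists hold peak positions, treated as other values. In 6 of them the authors also gave a score, the same number for every peak, which was not used, so calls carry no level. Headers of 6 lists state a peak size of 1000 bp for H3K4me3 and 5000 bp for H3K27me3, 4 fold over the control and a p of 0.0001. The 2 pregranulosa lists have no header.

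Overlapping peaks were joined within each list and the 4 H3K4me3 lists were merged, 1 bp of overlap making a call. Distances were taken to 90317 transcript starts of GENCODE M1, and sequence was read from NCBIM37. The nearest gene was that of the nearest protein-coding start. Motif letters were searched in the central 300 bp, and 1 of every 10 tiles of 1 kb was taken. Exact Clopper-Pearson intervals used 95% confidence and cover counting error only, and p-values were not computed because each population has 1 pooled list. RefSeq promoters were placed with minimap2 2.31 (exact matches with mapping quality 60). Python 3.11.15, NumPy 2.4.6, SciPy 1.17.1 and pysam 0.24.0 were used. The interval and motif functions were tested on simulated data against bedtools 2.31.1.

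Regions were named by rule: the 2 widest off chromosome 18 in each of 7 call patterns, the widest of each progenitor alone, the 3 genes holding most regions, and at most 20 regions by width nearest to listed early gonad, Sertoli or pregranulosa genes. The regions of 1 listed gene are not reported here. The members, gene lists, markers and motifs were chosen with earlier results of these data known. Germ cell, endothelial, blood, steroidogenic and mesonephric lists are given in the closing section. H3 has no list and was not analysed here.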

Additional observations from a re-analysis of the deposited data

How the results depend on the processing

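The number of distal regions was 28519 when only the widest 75% of each list were used, and within 1.5 times the reported number at start distances of 2 and 10 kb, with protein-coding starts, with lists of equal length, with regions joined within 1 kb and without the XY progenitor or pregranulosa list. The shares given here are those that left the counting interval. In the order XY progenitor, XX progenitor, Sertoli and pregranulosa, the shares called were 42.0, 43.3, 41.3 and 42.8% with lists of equal length and 38.8, 46.1, 39.96 and 50.1% with joining within 1 kb. Sertoli and pregranulosa shares were 37.6 and 48.3% at 10 kb and 38.2 and 49.4% for the widest 75%. The share in 1 list was 61.2% at 10 kb, 61.7% at equal length, 58.5% with joining, and, as alternatives chosen after seeing the data, 59.5% without XY progenitors and 68% without pregranulosa cells. The share in all lists was 10.3% at 10 kb, 11.5% with joining, 19.7% in the 3 lists without XY progenitors and 13.6% in the 3 without pregranulosa cells. The share inside a gene was 45.9% with joining and 44.5% with protein-coding genes.

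H3K27me3 overlap in the 4 populations was 11.5, 15.2, 12.5 and 14.8% at equal length, where the intervals of the stages overlapped in the XX lineage. It was 12.1, 13.6, 15.5 and 16.7% when H3K27me3 had to cover at least 50% of the region. It was 15.0, 15.9 and 16.5% in XX progenitors, Sertoli and pregranulosa cells for the widest 75%. The stricter island rule gave 3.49%, and the central 1 kb 20.2%. All coding genes with a distal region within 100 kb were 48.5%. The other alternatives were chosen after seeing the data. At E13.5, H3K27me3 overlap of regions no longer called and newly called was 13.8 and 6.42% (XY) and 16.1 and 7.14% (XX) at equal length, and 20.2 and 8.08% in the XX lineage for the widest 75%. Sertoli-only and pregranulosa-only shares at equal length were 30.2 and 32.8% near all genes, 41.0 and 21.6% near Sertoli-specific and 21.2 and 43.7% near pregranulosa-specific genes. With genes within 100 kb they were 23.99 and 36.8% near all and 35.5 and 23.96% near Sertoli-specific genes. NR5A1 letters in regions of both E13.5 lists only were at 6.40% for the widest 75%, and DMRT, SOX and TCF/LEF shares stayed within their intervals in both alternatives. The causes were not tested. Other values (58 of 113) stayed within their limits.

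No paired analysis was possible because replicates were pooled before peaks were called, and leaving out a replicate was not possible for the same reason. Depth differs between lists and is unknown for pregranulosa cells, so a missing call does not show a missing mark.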

Other observations

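Lists for other cell types also held distal regions. At least 1 distal region had as its nearest coding gene 11 of 14 germ cell genes, 14 of 15 endothelial genes, 8 of 10 mesonephric genes, 5 of 11 blood genes and 4 of 9 steroidogenic genes, against 49.96% of all coding genes. H3K27me3 overlapped 43.8% of the 73 regions nearest to mesonephric genes in Sertoli cells and 32.9% in pregranulosa cells, and 30.1 and 34.2% in XY and XX progenitors. Of the 59 regions nearest to germ cell genes it overlapped 13.6% in each progenitor and 28.8 and 30.5% at E13.5. Of the 80 nearest to endothelial genes it overlapped 8.75 and 7.50% in the progenitors and 27.5 and 26.2% at E13.5. Of the 22 nearest to blood genes it overlapped 22.7% in each progenitor, 45.5% in Sertoli and 31.8% in pregranulosa cells. Of the 19 nearest to steroidogenic genes it overlapped 5.26% in XY progenitors, 0% in XX progenitors, 15.8% in Sertoli and 0% in pregranulosa cells, where 0 of 19 allows up to 17.6% by the exact 95% interval. Over all distal regions the shares were 8.95, 8.17, 17.7 and 14.7% in XY progenitors, XX progenitors, Sertoli and pregranulosa cells.

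Distal regions nearest to Polycomb genes included stretches with both marks everywhere. Ezh2, the gene for the H3K27 methyltransferase, had 9, all called for H3K4me3 and covered in full by H3K27me3 in all 4 populations. They lie on chromosome 6 from 47599676 to 47637139, starting 4.06 to 4.65 kb apart. In 8 of the 9, 96.0 to 100% of all words of 31 bp occur in another of the 9, and in the other 35.0% do. Reads from near-identical copies cannot be told apart, so these 9 calls are uncertain as separate regions. They are 9 of the 907 distal regions with both marks in all populations. Jarid2, a cofactor of Polycomb repressive complex 2, had 34 distal regions, with H3K27me3 on 6 in each progenitor, 14 in Sertoli and 18 in pregranulosa cells. All 8 regions nearest to Msx1, a homeobox gene, carried H3K27me3 in full in every population.

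Distal regions were spread over all autosomes, with 15.8 to 21.6 per Mb by chromosome. Their share of all merged regions was lowest on chromosome 11 (51.1%) and highest on chromosome 18 (72.3%). Of the distal regions, 6.55% lay within 5 kb of a merged region that itself lies near a start.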
